A study of Bos taurus with 5 samples.

Results

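The genes described here are 3 inhibitors of cyclin-dependent kinases, CDKN1A, CDKN1C and CDKN2C, chosen by gene name from a table of 9022 genes and represented there by 4 of its 13391 transcripts. The levels were measured by RNA sequencing in longissimus dorsi, the long back muscle, of Jiaxian Red cattle aged 18 months. One library came from each of 5 animals, which formed a single group, and the labels give no treatment or genotype to compare. The aim stated for the series was to identify genes that affect muscle development in these cattle, and the comparisons below are between genes within a library and between libraries. Levels are FPKM, which are fragments per transcript length and library size, added up over the transcripts the table lists for a gene.

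Cyclin-dependent kinases drive cells from one phase of the cell cycle to the next once a cyclin is bound. The CIP/KIP inhibitors, to which CDKN1A (p21) and CDKN1C (p57) belong, bind cyclin and kinase together and block several such complexes. The INK4 inhibitors, to which CDKN2C (p18) belongs, bind the kinases CDK4 and CDK6 and keep cyclin D from them. Muscle fibres are formed from myoblasts that have left the cell cycle for good, and p21, p57 and p18 are known for their part in that exit. CDKN1A is also a target of FOXO factors, and CDKN1C is an imprinted gene, expressed chiefly from the maternal copy.

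The tissue label was checked first. All 10 listed muscle fibre genes of 12 chosen averaged above 1 FPKM, a limit that 6136 of all 9022 genes reached. Their means ran from 16.2 FPKM for CKM to 5134 for ACTA1, where the median over those 6136 genes was 6.38. Their summed level ran from 22645 FPKM in library 1 to 27398 in library 4. The summed FPKM of the whole table was lowest in library 1, at 193706, and highest in library 4, at 223251. Of the 6136 genes detected, that is with a mean of at least 1 FPKM, 24.4% had their highest value in library 1 and 26.5% their lowest there. In whole muscle, fewer cells of a type and less RNA per cell cannot be told apart, and with 1 library per animal an animal and its library cannot be told apart either.

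CDKN1A had the highest mean of the 3 genes, though only with library 5 included, and was the least even. Its single listed transcript, CDKN1A-201 (gene ENSBTAG00000008353, placed by the table on chromosome 23 at 10582308 to 10590589), measured 8.72, 16.4, 21.8, 14.5 and 37.8 FPKM in libraries 1 to 5, in that order. Library 5 stood highest and library 1 lowest, and the highest value was 4.34 times the lowest. The mean was 19.8 ± 11.1 FPKM (SD, n = 5), above 81.8% of detected genes. On the log2(FPKM + 1) scale its SD of 0.74 exceeded that of 92.4% of detected genes. Within single libraries, CDKN1A lay above 60.7% of detected genes in library 1 and above 90.2% in library 5. Without library 5 the mean was 15.4 ± 5.41 FPKM, below the 16.7 FPKM of CDKN1C over the same 4 libraries. Relative to all others, 3659 of 6135 detected genes (59.6%) were lower than CDKN1A in 5 of 5 libraries, 590 (9.62%) were higher in 5 of 5, and the remaining 30.7% changed sides between libraries. Without library 5 the number higher in all 4 libraries was 996.

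CDKN1C was nearly as abundant and far more even. The gene (ENSBTAG00000031184, chromosome 29 from 48728420 to 48730918) measured 20.6, 14.8, 15.5, 15.9 and 15.1 FPKM in libraries 1 to 5, in that order. Libraries 2 to 5 lay close together and library 1 stood above them, at a distance that Dixon's gap ratio marks for 6.76% of detected genes and, with library 1 as the high one, for 1.35%. The mean was 16.4 ± 2.38 FPKM (SD, n = 5), above 77.7% of detected genes, and the highest value was 1.39 times the lowest. Its SD of log2(FPKM + 1), 0.18, exceeded the SD of 30.8% of detected genes. Without library 1 it was 0.044, at the 1.43rd percentile, and the mean was 15.3 ± 0.494 FPKM. Library 1 was the distant library of CDKN1C itself, so leaving it out favoured a low percentile. Without any 1 of the other libraries instead, the SD lay at the 35.6th to 45th percentile. Fewer detected genes changed sides against CDKN1C than against CDKN1A: 4339 (70.7%) were lower in 5 of 5 libraries, 959 (15.6%) were higher in 5 of 5, and 13.6% were mixed.

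CDKN1C had 2 listed transcripts over the same interval, and CDKN1C-202 carried nearly all of the signal. CDKN1C-202 averaged 16.2 ± 2.18 FPKM, which was 98.8% ± 1.04 of the gene (SD, n = 5). CDKN1C-201 measured 0.614, 0.200, 0.112, 0.051 and 0.131 FPKM in libraries 1 to 5, in that order. Its share of the gene ran from 0.320% in library 4 to 2.98% in library 1. Both transcripts were thus highest in library 1, as were 24.4% of detected genes.

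CDKN2C was expressed at a low level in all 5 muscles. The gene (ENSBTAG00000011059, chromosome 3 from 95337691 to 95342769, transcript CDKN2C-201) measured 3.26, 2.03, 2.24, 5.78 and 5.10 FPKM in libraries 1 to 5, in that order. Libraries 4 and 5 were high, libraries 2 and 3 low, and library 1 lay between them; 25.3% of detected genes had their highest value in library 4 and 21% their lowest in library 2. The mean was 3.68 ± 1.69 FPKM (SD, n = 5), above 31.9% of detected genes, with a highest value 2.85 times the lowest. The SD of log2(FPKM + 1), 0.52, exceeded that of 85.3% of detected genes. It was higher in 5 of 5 libraries than 779 detected genes (12.7%), and 3000 (48.9%) were higher than it in 5 of 5.

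Of the other inhibitors of both families, CDKN2D (p19, an INK4 member) was listed through 1 transcript, CDKN2D-202. It averaged 2.26 ± 0.653 FPKM (SD, n = 5), from 1.46 in library 1 to 3.02 in library 4, and exceeded CDKN2C in library 3 alone. CDKN2D-201 is not among its listed transcripts, so its sum may be partial, whereas the transcript numbers of the 3 inhibitors above had no gap. The same limit holds for TFDP2, RB1, LIN54, LIN9, MCM5, MCM6, FBXW7, TSC22D3, KLF6, TGFB1, SOX5, KCNQ1, FAF1, MEF2A, MEF2C, MEF2D, EYA1, HEYL, ACTA2, PDGFRA, MB and the lower GNAS entry, named below, whose transcript numbers also had gaps. Some genes that enter only list counts or sums, such as MYH11, had gaps as well. CDKN1B, CDKN2A and CDKN2B were not analysed here.

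**Figure D1:**
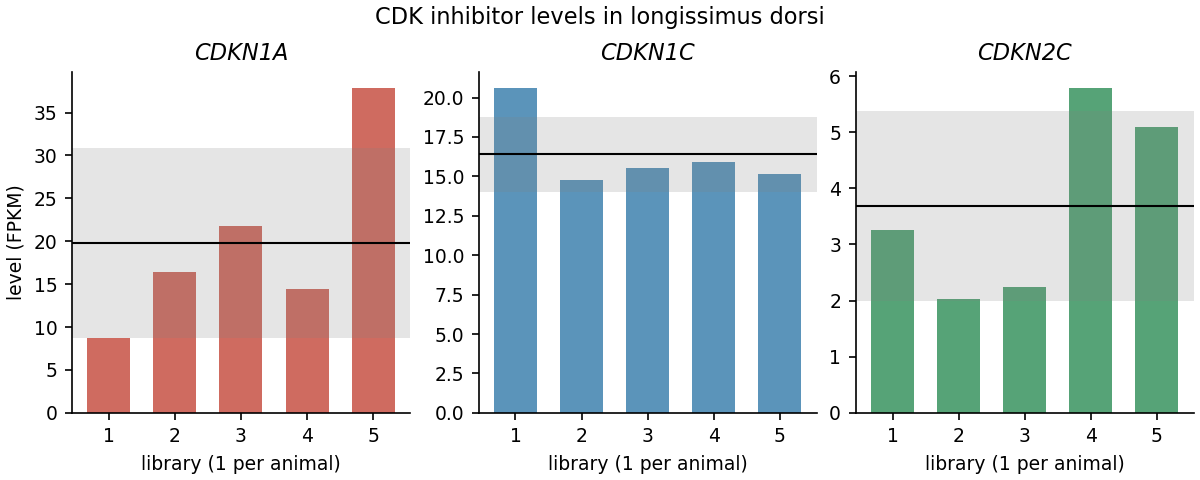
Level in FPKM of CDKN1A, CDKN1C and CDKN2C (bars) in each of the 5 libraries, 1 per animal, with the mean as a line and the mean ± SD as a grey band; each panel has its own axis from 0. CDKN1A was highest in library 5 (37.8 FPKM), CDKN1C in library 1 (20.6) and CDKN2C in library 4 (5.78).

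The order of CDKN1A and CDKN1C was not the same in every animal, whereas both lay above CDKN2C throughout. CDKN1A exceeded CDKN1C in libraries 2, 3 and 5 and lay below it in libraries 1 and 4. The mean log2 ratio of CDKN1A over CDKN1C, taken on FPKM + 1, was 0.12 ± 0.88 (SD, n = 5; exact two-sided sign-flip p = 0.688, adjusted 0.688), and limma gave a 95% interval from -0.63 to 0.87. Without library 5 the mean ratio turned to -0.17. CDKN1A exceeded CDKN2C by 4.22-fold and CDKN1C exceeded it by 3.89-fold, each in 5 of 5 animals. The log2 ratios were 2.08 ± 0.82 and 1.96 ± 0.55 (SD, n = 5). The exact p was 0.0625 for both, which is the smallest that 5 libraries allow (adjusted 0.0781 over 15 pairs). In limma's test of the ratios of all detected genes to the same inhibitor, the adjusted p was 1.36e-07 for CDKN1A over CDKN2C and 2.18e-05 for CDKN1C over CDKN2C. Those ratios share 1 gene and are not independent, so limma's p-values may be too small and its intervals too narrow.

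The make-up of the 3-gene sum differed between animals. CDKN1A made up 26.8%, 49.4%, 55.1%, 40.0% and 65.1% of the sum in libraries 1 to 5, in that order. CDKN1C made up 63.2% in library 1 and 26.1% in library 5, with 39.2% to 44.5% in the rest. CDKN2C held the remainder, least in library 3 (5.65%) and most in library 4. The sum itself was 32.6, 33.2, 39.6, 36.1 and 58.1 FPKM in libraries 1 to 5, so that library 5 stood above the rest.

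Both CIP/KIP genes lay above each listed kinase and cyclin of the G1 phase in 5 of 5 animals. CDK4, the kinase that cyclin D activates, averaged 8.37 ± 1.14 FPKM (SD, n = 5). CDK6, its close relative, was listed at 0 in library 2 and measured 3.86 to 4.59 FPKM in the other libraries. CCND2, which encodes cyclin D2, averaged 1.74 ± 0.343 FPKM and CCNE1, which encodes cyclin E1, averaged 2.68 ± 1.32 (SD, n = 5). All 4 lay below CDKN1A and below CDKN1C in every library, as did 59.6% and 70.7% of all detected genes.

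CDKN1C exceeded CDK4 by 1.85-fold with little spread, a log2 ratio of 0.89 ± 0.21, and CCND2 by 6.35-fold, 2.67 ± 0.19 (SD, n = 5). CDKN1A exceeded CDK4 by 2.01-fold on average, 1.01 ± 0.83, but in library 1 CDKN1A and CDK4 were level, at 8.72 and 8.58 FPKM. Its ratio to CCNE1, 2.43 ± 0.49, had a smaller SD than its ratio to CDK4. CCNE1 was likewise lowest in library 1 (0.883 FPKM) and highest in library 5 (4.14 FPKM), as were 6.13% of all detected genes. In library 4, however, CCNE1 was next highest (3.82 FPKM) and CDKN1A next lowest (14.5 FPKM). CDKN2C, which acts on CDK4 and CDK6, lay below CDK4 in 5 of 5 animals, by 2.10-fold (log2 ratio -1.07 ± 0.45). CDKN2C did not separate from CDK6 (0.25 ± 0.88, higher in 3 of 5) or CCNE1 (0.36 ± 0.52, higher in 3 of 5) and exceeded CCND2 by 1.63-fold in 5 of 5 (0.71 ± 0.45; SD, n = 5). The exact p was 0.0625 (adjusted 0.0781) for each of these pairs that pointed 1 way in 5 animals, 0.625 for CDKN2C and CDK6 and 0.25 for CDKN2C and CCNE1 (adjusted 0.670 and 0.288). Limma's adjusted p was 0.0117 for CDKN1A over CDK4, 1.36e-04 for CDKN1C over CDK4, 9.34e-04 for CDKN2C and CDK4 and 0.0306 for CDKN2C over CCND2. For CDKN2C limma's 95% interval of the log2 ratio ran from -0.34 to 0.85 against CDK6 and from -0.24 to 0.95 against CCNE1. As above, limma's p-values may be too small and its intervals too narrow, because the ratios share 1 gene. Without library 2, where CDK6 was listed at 0, the ratio of CDKN2C over CDK6 turned to -0.082. CDK2, CCND1 and CCND3 were not analysed here.

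**Figure D2:**
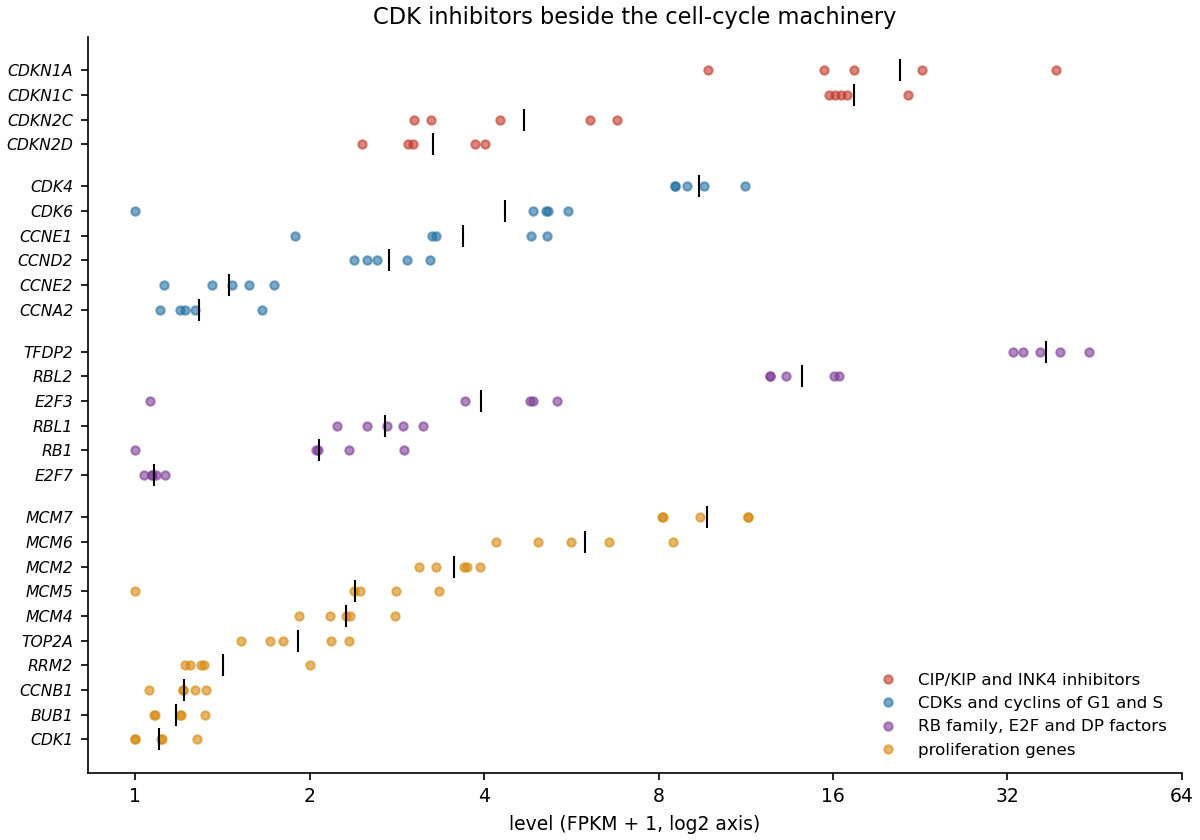
Level as FPKM + 1 on a log2 axis of the listed CDK inhibitors, of the kinases and cyclins of G1 and S phase, of RB, E2F and DP genes, and of proliferation genes; points are the 5 libraries and black ticks the means. CDKN1A and CDKN1C lie to the right of every kinase, cyclin and proliferation gene shown by their means, while CDKN2C (mean 3.68 FPKM) lies among them.

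Downstream of the kinases, the pocket proteins and their partners were unevenly represented. RBL2 (p130), the pocket protein of resting cells, averaged 13.1 ± 1.94 FPKM (SD, n = 5), next to CDKN1C in level. RB1 was listed at 0 in library 1 and between 1.05 and 1.91 FPKM in the others. TFDP2, a dimer partner of the E2F factors, averaged 36.4 ± 4.57 FPKM (SD, n = 5) and lay above both CIP/KIP genes in 5 of 5 libraries, in library 5 by 38.4 against 37.8 FPKM for CDKN1A. E2F3 was lowest in library 3 and highest, at 4.35 FPKM, in library 4. Of the 5 detected genes of this list, 3 lay below CDKN1A and 3 below CDKN1C in 5 of 5 libraries. Of all detected genes, 59.6% and 70.7% did so. RBL2 forms the DREAM complex with the MuvB core, of which RBBP4 averaged 42.5 ± 5.06 FPKM, LIN54 5.72 ± 1.58, LIN52 4.70 ± 0.956 and LIN9 1.47 ± 0.276 (SD, n = 5). RBBP4, LIN54 and LIN9 were lowest in library 1 and highest in library 5, as CDKN1A was. That was 3 of 4 detected genes of the complex, where 6.13% of all detected genes had both extremes in those libraries. LIN54 measured 3.00 FPKM for library 1 and 6.84 for library 5, with 6.80 for library 2. RBBP4 measured 36.0 and 47.8, with 47.4 for library 4. In both genes library 5 was thus highest by a narrow margin only. With libraries rescaled to a fixed total, or with median-ratio size factors, or with the highest transcript of each gene, 2 of 4 were highest in library 5.

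Proliferation genes, like those of other lists, were listed only in part. Of 19 chosen, 10 were listed and 5 detected. Over all lists 142 of 227 symbols were listed, so an unlisted gene was not read as a low one. All 5 detected lay below CDKN1A and below CDKN1C in 5 of 5 libraries, beside 59.6% and 70.7% of all detected genes. They were led by the replicative helicase subunits MCM7 at 8.70 ± 1.65 FPKM, MCM6 at 4.97 ± 1.65 and MCM2 at 2.55 ± 0.342 (SD, n = 5). MCM5 was listed at 0 in library 2. None of the 5 was lowest in library 1, and none was highest in library 5 except 1 under either rescaling of the libraries. Of all detected genes, 26.5% were lowest in library 1 and 17.2% highest in library 5. MCM7 and MCM6 averaged above CDKN2C, which exceeded 2 of the 5 in 5 of 5 libraries, beside 12.7% of all detected genes.

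Genes chosen for a possible part in the turnover of the inhibitors, most of them of ubiquitin ligases, spanned a wide range of levels. Of 8 detected, 4 lay below CDKN1A in 5 of 5 libraries, beside 59.6% of all detected genes. SKP1, the adaptor of SCF ligases, averaged 126 ± 17.3 FPKM, CUL4A, the scaffold of the CRL4 ligases, 88.6 ± 8.66, and the SCF scaffold CUL1 28.0 ± 2.64 (SD, n = 5). SKP2, the substrate receptor for p21, p27 and p57, averaged 1.87 ± 0.413 FPKM. The most variable members were FBXW7, from 0.138 FPKM in library 3 to 7.23 in library 4, and PSME3, a proteasome activator, from 5.10 in library 1 to 9.74 in library 2. Of the 8 detected, 4 were lowest in library 1, with 26.5% as the share of all detected genes, and 1 was highest in library 5, with 17.2%.

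CDKN1A was then set beside genes of the FOXO and glucocorticoid response, which fasting and stress raise in muscle, and these were divided. PDK4, which shuts off pyruvate oxidation in fasting, measured 56.1, 138, 347, 79.0 and 231 FPKM in libraries 1 to 5, in that order. It shared with CDKN1A the lowest value in library 1, the next lowest in library 4 and the middle value in library 2, and differed from it in being highest in library 3. GLUL, the glutamine synthetase gene, averaged 208 ± 42.9 FPKM and was highest in library 5, at 264, as was FOXO3, at 14.4. TSC22D3, a glucocorticoid target, was highest in library 1, with 56.5 FPKM against 22.6 for library 5. TRIM63, the atrophy ubiquitin ligase, averaged 100.3 ± 16.6 FPKM and was highest in library 2. In this list 2 of 10 detected genes were highest in library 5 and 2 of 10 lowest in library 1, beside 17.2% and 26.5% of all detected genes.

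Immediate-early genes, which handling and stress induce within minutes, include some that were highest in library 1, where CDKN1A was lowest. EGR1 measured 28.1, 7.88, 7.24, 8.19 and 11.3 FPKM in libraries 1 to 5, and FOSB reached 9.50 in library 1 and at most 4.54 elsewhere. KLF6 was almost equal in libraries 1 and 5, at 52.2 and 51.2 FPKM, and HSPA1A was lowest in library 1, at 130 FPKM, and highest in library 4, at 401. Of the 9 detected genes of this list 5 were highest in library 1, beside 24.4% of all detected genes, and 2 in library 5, beside 17.2%. The TGF-beta genes chosen as possible regulators were led by TGFB2 (19.3 ± 1.53 FPKM) and SMAD2 (14.2 ± 0.901; SD, n = 5). Their most variable detected members were ACVR2B, highest in library 2, and TGFB1, highest in library 1.

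**Figure D3:**
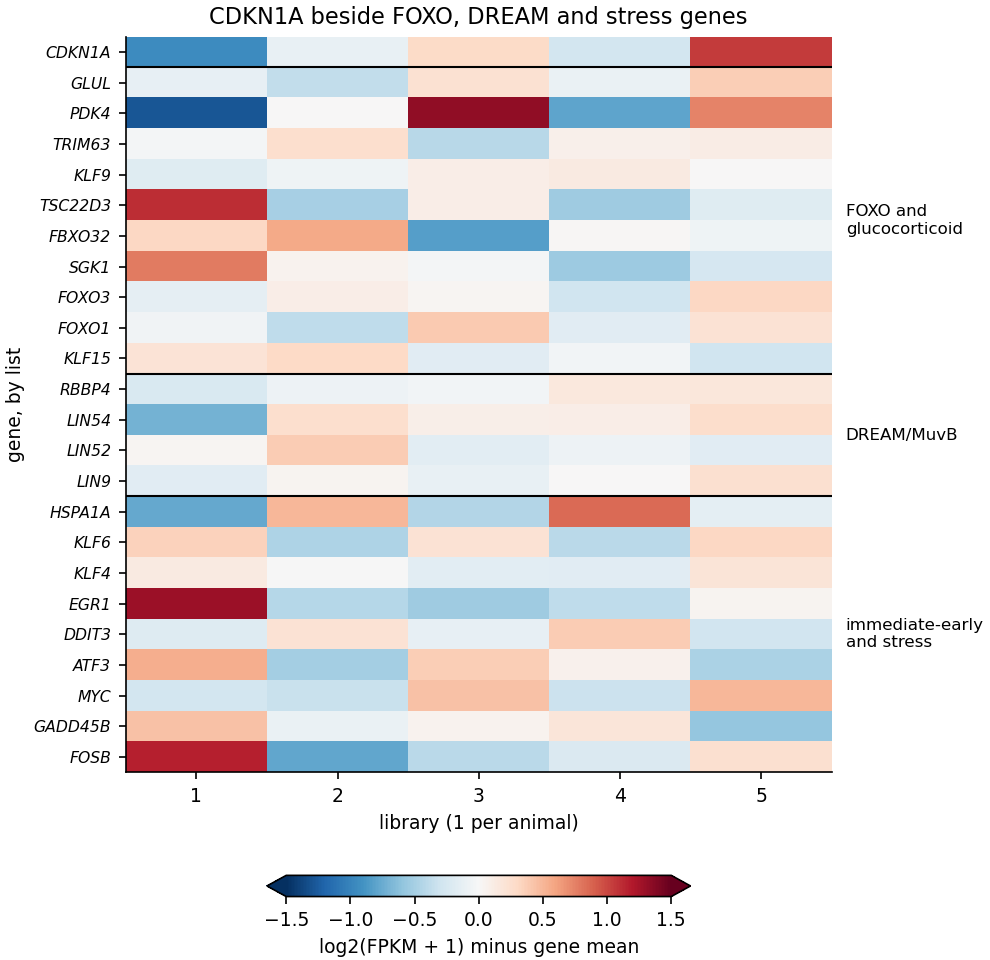
Heat map of log2(FPKM + 1) minus each gene's mean over the 5 libraries, for CDKN1A (top row) and the detected members of the FOXO and glucocorticoid, DREAM/MuvB and immediate-early lists; red is above and blue below the gene's mean, and the colour scale ends at 1.5 in each direction. CDKN1A is blue in library 1 and red in library 5, and EGR1, FOSB and TSC22D3 are red in library 1.

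The nearest profiles over the 5 libraries were sought among detected genes with a symbol, by the root-mean-square difference of centred log2(FPKM + 1). For CDKN1A the nearest were GFOD1 (0.20), WASF3 (0.25), MRPS17 (0.25), RAMP1 (0.30) and THOC7 (0.30), against 0.66 for a flat profile and a median of 0.69 over 6135 genes. GFOD1 measured 1.47 FPKM for library 1 and 6.80 for library 5, and RAMP1, a co-receptor of calcitonin-type peptides, 7.56 and 29.1. One gene lay within 0.25 of CDKN1A. For CDKN2C the nearest were ATP6V1E1 (0.12), a proton pump subunit, KLHL23 (0.12), C3H1orf54 (0.14), SPATA20 (0.15) and RNASEH2C (0.17), against 0.47 for a flat profile. All 5 were higher in libraries 4 and 5 than in libraries 1 to 3, and 47 genes lay within 0.25 of CDKN2C. For CDKN1C the nearest were SOGA1 (0.024), SKI (0.025), NCAPD3 (0.032), PTPRJ (0.036) and SOX5 (0.038). They shared a single raised library, library 1, and since CDKN1C was itself within 0.16 of a flat profile, 2448 genes lay within 0.25 of it. With 5 libraries such nearness is a description of these animals and carries no test.

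**Figure D4:**
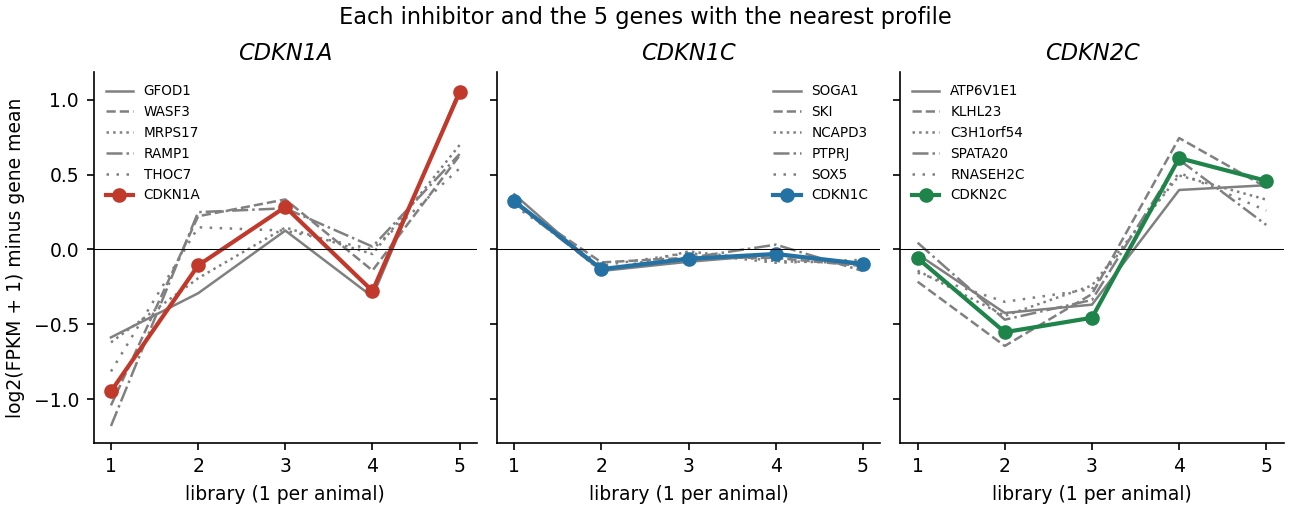
Log2(FPKM + 1) minus the gene's mean in each library (1 per animal) for CDKN1A, CDKN1C and CDKN2C (coloured lines with points) and the 5 genes of nearest profile (grey lines). CDKN1A is lowest in library 1 and highest in library 5, CDKN1C is flat but for library 1, and CDKN2C is high in libraries 4 and 5.

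The nearest listed genes with a symbol on either side of the 3 inhibitors were looked at as well. CDKN1C sits in an imprinted cluster, and its neighbours among named genes of the table were SLC22A18, 15.8 kb away, at 0.488 ± 0.162 FPKM (SD, n = 5), and KCNQ1, 28.3 kb away. KCNQ1, a potassium channel gene, reached 1.72 to 2.71 FPKM in libraries 1, 2 and 5 but only 0.019 in library 3 and 0.035 in library 4, where CDKN1C measured 15.5 and 15.9. The same 2 genes flank CDKN1C in RefSeq's annotation of the ARS-UCD2.0 assembly. Among other imprinted growth genes, CD81 averaged 56.4 ± 3.11 FPKM and IGF2R 21.4 ± 2.04, both even like CDKN1C, whereas GRB10 ran from 3.47 FPKM in library 4 to 22.6 in library 2 (SD, n = 5). Of the 11 detected entries of imprinted genes 4 were highest in library 1, beside 24.4% of all detected genes. GNAS was listed under 2 gene identifiers, of which the more abundant was highest in library 1 and the lower in library 5. CDKN1A lay 16.5 kb from a gene named RPS4Y1, a ribosomal protein gene at 13.0 ± 2.34 FPKM, and 26.0 kb from RAB44, at 0.130 ± 0.062 (SD, n = 5). In the same RefSeq annotation RPS4Y1 also flanked CDKN1A, but LOC104975643 and not RAB44 lay on its other side. RPS4Y1 was lowest in library 1 (9.51 FPKM), as CDKN1A and 26.5% of all detected genes were, and highest in library 4 (15.7). CDKN2C lay 9.11 kb from FAF1, which reached 23.2 FPKM in library 2 and 21.4 in library 4 but at most 6.32 elsewhere, and 335 kb from TTC39A, at 0.241 ± 0.129. CDKN2C was low in library 2 and high in library 4, so it did not share the pattern of FAF1. In RefSeq C3H1orf185 and LOC112446016 flanked CDKN2C. FAF1 was the next protein-coding gene on its side there, and TTC39A was not adjacent.

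Muscle regulators gave the following levels beside the inhibitors. MEF2C, a factor of fibre gene expression, averaged 65.4 ± 10.2 FPKM, SIX4 14.4 ± 3.15 and MEF2D 9.77 ± 1.42 (SD, n = 5), and the most variable of the list were MEF2A, from 3.00 FPKM in library 3 to 8.67 in library 2, and EYA1, listed at 0 in library 1 and at 5.42 in library 5. Of the 6 detected myogenic factors 3 were highest in library 5 and 4 lowest in library 1, beside 17.2% and 26.5% of all detected genes. EYA1 was among those 4 through its 0. With median-ratio size factors 2 of 6 were highest in library 5, beside 15.8% of all detected genes. With libraries rescaled to a fixed total 3 of 6 were lowest in library 1, beside 19.6%. Among satellite cell genes SPRY1, an inhibitor of growth factor signalling in resting satellite cells, averaged 19.7 ± 1.35 FPKM, and the syndecan gene SDC4 10.2 ± 4.37 (SD, n = 5). CHODL ran from 6.26 to 7.96 FPKM, HEYL from 4.23 to 8.49, and PAX7, the defining satellite cell factor, from 0.135 in library 4 to 1.36 in library 1.

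Markers of other cells differed between the libraries in which the inhibitors differed. In library 1, where CDKN1C was highest and CDKN1A lowest, 24.4% of all detected genes had their highest value. That was so for 5 of 6 detected satellite cell genes, 3 of 5 smooth muscle and pericyte genes and 2 of 4 fibroblast genes. Among the other marker lists it held for 2 of 7 endothelial, 3 of 10 muscle fibre, 1 of 1 leukocyte and 0 of 2 adipocyte genes. The summed satellite cell level ran from 45.1 FPKM in library 4 to 67.1 in library 1, the fibroblast and matrix level from 426 in library 2 to 901 in library 1, and the smooth muscle and pericyte level from 43.3 in library 5 to 95.4 in library 1. A few genes carried the last 2 sums. In library 1 COL3A1 alone measured 625 FPKM, and ACTA2 and TAGLN measured 50.2 and 28.3. FBN1 and PDGFRA were highest in library 4, PDGFRB in library 2 and CSPG4 in library 3. The summed leukocyte level ran from 2.70 FPKM in library 3 to 6.24 in library 1. The endothelial level was steadier, from 109 FPKM in library 2 to 124 in library 5, and the adipocyte level ran from 69.1 in library 5 to 106 in library 3. No listed marker was at 0 in every library. In library 5, where CDKN1A was highest, the myoglobin gene MB also stood apart, at 766 FPKM against 106 to 214 in the others. CKM, the muscle creatine kinase gene, was at its lowest there, 2.50 FPKM against 9.67 to 35.5. MB and CKM were the most variable of 10 detected muscle fibre genes. Of these, 2 were highest in library 5 and 6 lowest in library 1, beside 17.2% and 26.5% of all detected genes. Highest in library 5 were also 3 of 7 endothelial and 1 of 6 satellite cell genes, and no detected gene of the other marker lists. Outside the fibre genes, only 1 of 2 adipocyte genes was lowest in library 1. The part of these genes and cells in the levels of the inhibitors was not tested.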

How the data were processed

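Total RNA of longissimus dorsi from 5 animals gave 1 library each. The authors deposited FPKM per transcript and library, per the file headers. The submitters' processing notes name HTSeq 0.6.0, DESeq2 1.10.1 and the build UMD3.1 with no role for any; the aligner, FPKM program and annotation are not given in the sources used here, and no build is claimed for the table's positions. Without counts the depth is unknown and no counting error was computed. An exact 0 can be a failed estimate and is given as listed at 0.

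Transcripts were summed per gene identifier and analysed as log2(FPKM + 1), which understates ratios of low genes; genes of a mean of at least 1 FPKM were detected. No value column was left unmapped. The tools were Python 3.11.15, with numpy 2.4.6 and pandas 2.3.3 for the tables, scipy 1.17.1, and matplotlib 3.10.9 for plots. Library numbers are those of the labels. Of 24 gene pairs 15 had both genes listed and were tested by exact sign flips of the within-library ratios (two-sided permutation, Benjamini-Hochberg over the 15). Limma 3.58.1 in R 4.3.3 tested the ratio of every detected gene to an inhibitor, adjusted over 6135 genes, with 0.05 as the threshold. Limma pools its spread over ratios that share a gene. It was first run on simulated data in which the inhibitor varied as much as the other genes. CDKN1A and CDKN2C varied more than most genes, so that run does not show how limma behaves for them. A Dixon gap ratio above 0.71 marked a distant library.

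The 3 inhibitors, 19 gene lists and pairs were chosen with earlier results of these data known; 1 further comparison is not reported here. Genes were named by rule: listed inhibitors, pair members, the top 3 by mean and top 2 by SD among detected members of each list, the 5 nearest profiles and adjacent named genes. SKP2, FOXO3, PAX7, LIN9, PDGFRA and the leading members left unnamed in some lists are exceptions made after values were seen. Of 12 denervation genes 8 were detected, all 8 below CDKN1A in every library and 5 highest in library 1, beside 59.6% and 24.4% of all detected genes. The alternatives were a pseudocount of 0.1, detection limits of 5 FPKM and none, rescaling to the mean summed FPKM, median-ratio size factors, the highest transcript of each gene, leaving out each library, and limma.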

Additional observations from a re-analysis of the deposited data

Results flagged for a closer look

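A library lay far from the other 4, by Dixon's gap ratio, for 6.76% of all detected genes, so single cases carry little weight. CDKN1C was high in library 1 with a gap ratio of 0.803, as were its transcripts CDKN1C-202 (0.760) and CDKN1C-201 (0.735); library 1 was the distant high library for 1.35% of detected genes. Of the genes nearest to CDKN1C in profile, SOGA1 (0.816), SKI (0.884), NCAPD3 (0.753) and SOX5 (0.813) were likewise high in library 1, which follows from how they were chosen. The summed level of the 3 inhibitors was distant in library 5, with a ratio of 0.724, though that of CDKN1A alone was 0.550.

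CDK6 was distant through its 0 in library 2 (0.840), which also set the ratio of CDKN1C over CDK6 apart (0.871). LIN54 (0.759) and CUL4A (0.818) were low in library 1. EGR1 (0.805), TSC22D3 (0.739) and TGFB1 (0.764) were high in library 1, and MB (0.836) was high in library 5.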

How the results depend on the processing

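Depth is unknown, so genes near 1 FPKM, such as CCND2 and RB1, are the least certain. With single libraries left out, the log2 ratio of CDKN1A over CDKN1C ran from -0.17, without library 5, to 0.44, and that of CDKN2C over CDK6 from -0.082, without library 2, to 0.48. CDKN1A over CDKN2C (1.89 to 2.30) and CDKN1C over CDKN2C (1.85 to 2.12) kept their direction, and limma put both past its threshold at unchanged ratios of 2.08 and 1.96. The SD of log2 CDKN1C ran from 0.044, without library 1, to 0.21. The genes higher than CDKN1A in every library numbered 590 to 996, the last without library 5. The genes lower than CDKN1A numbered 1104 with a detection limit of 5 FPKM and 6545 with none, those lower than CDKN1C 1777 and 7225, and those lower than CDKN2C 3646 with none, because fewer or more genes were counted; CDKN2C was below the limit of 5 FPKM and was not placed there. Rescaling to a fixed total left 18.6% of all detected genes highest in library 5 and 19.6% lowest in library 1; these list counts were rerun as an alternative chosen after seeing the data. No paired analysis was possible because there was 1 group, with no other to pair by replicate number; the gene ratios were taken within libraries.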
